A study of Mus musculus with 4 samples.

Results

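Histone and histone variant genes were examined in cultured mouse neural stem cells. They were taken from the deposited expression table by gene symbol (H1f, H2ac, H2bc, H3c, H4c, H2az, H2aj, H2ax, H3f3 and Macroh2a) and the biotype protein-coding, which gave 77 of 55487 genes. Of these, 64 were replication-dependent histone genes and 13 were histone variant genes. The study asked what the loss of *Tut1*, which encodes the enzyme that adds uridines to the end of U6 snRNA, does to neural stem cells, with and without *Trp53*, which encodes p53.

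RNA was measured in 4 groups with 1 library each. All groups were primary neural stem cells from the neocortex of mid-gestation embryos, grown as neurospheres, and all carried floxed alleles. The control was Tut1f/f and received empty lipid nanoparticles. The library labelled Tut1 KO was Tut1f/f, the library labelled Trp53 KO was p53f/f, and the library labelled double KO was Tut1f/f;p53f/f, and these 3 received nanoparticles with Cre mRNA. The 4 libraries analysed here include no p53f/f cells with empty particles and no cells without floxed alleles. Against the control, which had empty particles, the Cre mRNA and the deletion cannot be told apart under any label. The genotype of the cells also differed in every contrast but that of the library labelled Tut1 KO against the control, and there too the sex of the cells differed, as given with *Xist* in the values that follow. Whether a library was made from 1 embryo or from pooled embryos is not given in the sources used here. As each group had 1 library, replicates could not be compared, and no test, error or p-value is given. In bulk RNA, fewer cells of a type and less RNA per cell cannot be told apart.

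Histones package DNA into nucleosomes. Replication-dependent genes of the H1, H2A, H2B, H3 and H4 families lie in clusters, are transcribed mainly in S phase and supply new chromatin behind the replication fork. Their mRNAs usually end in a stem-loop, bound by the protein Slbp, in place of a poly(A) tail. Variant genes usually lie alone in the genome, are expressed outside S phase too, and mostly give polyadenylated mRNAs. The labels name a library kit that selects poly(A) RNA, so the values of replication-dependent genes are those of whatever part of their RNA such a library holds.

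The levels are transcripts per 1000000 transcripts (TPM), and differences are on the log2(TPM + 1) scale, which understates the change of low genes. A gene was tested in a contrast when its mean over the 4 libraries was at least 1 TPM, which 14157 genes reached, and counted as called where its difference reached 1 in size. *Tut1* itself was at 12.2 TPM in the control, 29.8 in the library labelled Tut1 KO, 12.5 in that labelled Trp53 KO and 13.7 in that labelled double KO. It was thus not lower under either label that names it, and every direction drawn from these libraries rests on the labels. Cre removes only a part of *Tut1*, and a gene-level value can include RNA from the deleted allele. Other assays of the deletion were not analysed here. *Trp53* was at 120 and 100 TPM in the control and the library labelled Tut1 KO, and at 39.7 and 41.9 TPM in the libraries labelled Trp53 KO and double KO. *Xist* was at 0.01 TPM in the control and the library labelled double KO but at 188 and 204 TPM in the other 2, with the Y-linked *Ddx3y* the other way round (24.4 and 25.7 against 0 and 0), so in each of the 4 contrasts used here the sex of the cells and the label cannot be told apart. The sign of this difference was opposite in the contrasts of the Tut1 label. All 10 neural stem cell markers were at 10 TPM or more in every library, and summed markers of microglia were at 0.27 to 0.75 TPM, with *Aif1*, *C1qa* and *Cx3cr1* at 0 in all libraries. Summed markers of neurons were at 241, 167, 212 and 219 TPM in the control and the libraries labelled Tut1 KO, Trp53 KO and double KO. Most of this was *Map2*, at 208, 141, 181 and 191 TPM in the same order, so the sums follow that gene. Over the 6 tested neuron markers, the median difference between the libraries labelled Tut1 KO and control was -0.15, with 1 above 0 and 5 below. Over all tested genes it was -0.09. The part of neurons in the results was not tested.

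The classes were set by gene symbol, and the stem-loop is shown first because it is the known mark of replication-dependent histone mRNA. It was searched for as 16 bases within 200 bases after the stop codon of the GENCODE M21 transcripts (GRCm38, the build that the submitters call mm10). It was found in 52 of 21762 protein-coding genes (0.239%), and 44 of these 52 were histone genes of the set described here. Of the replication-dependent genes it was found in 43 of 64, and in 41 of the 45 whose annotated transcript goes on for at least 60 bases after the stop codon. Of the variants it was found in 1 of 13, *H2ax*, where the polyadenylation signal AATAAA was not found after the stop codon. Whether the *H2ax* RNA measured here had a poly(A) tail was not tested. In the lines that follow, the 16 bases of the stem-loop are in capitals and 5 bases on each side in lower case, 5′ to 3′ on the transcript.
H1f2: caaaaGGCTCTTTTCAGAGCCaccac
H2bc8: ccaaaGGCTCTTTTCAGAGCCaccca
H3c8: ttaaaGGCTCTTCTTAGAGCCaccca
H4c9: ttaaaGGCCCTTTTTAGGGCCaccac
H4c2: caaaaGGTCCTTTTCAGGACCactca
H2ax: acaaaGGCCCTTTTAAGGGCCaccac

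*H1f2* and *H2bc8* carried the form that was found in 24 members. The stem, read as the outer 6 bases on each side, divided the families. All 32 replication-dependent genes of the H1, H2A, H2B and H3 families with a stem-loop had the stem of *H1f2*. None of the 11 H4 genes with one had it, and 9 of them shared the stem of *H4c9*. *H2ax*, an H2A variant, had the stem of *H4c9* as well. The 44 members held 9 different stem-loops in all, which began 22 to 59 bases after the stop codon. The stem-loops shown lie on chromosome 13 at 23739512 to 23739527 (*H1f2*), 23571843 to 23571858 (*H2bc8*), 23535889 to 23535904 (*H3c8*), 22040966 to 22040981 (*H4c9*, minus strand) and 23757366 to 23757381 (*H4c2*), and on chromosome 9 at 44335240 to 44335255 (*H2ax*).

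The 4 genes with a transcript of that length and no stem-loop in the window were *H2bc4*, *H2bc21*, *H2bc23* and *H2bc24*, all of the H2B family. The other 19 genes are annotated with under 60 bases after the stop codon, among them *H2ac10*, and the stem-loop was found in 2 of them. Where the annotated transcript ends that early, a stem-loop can lie outside the window that could be searched. The polyadenylation signal AATAAA was found after the stop codon in 16 of 64 replication-dependent genes and in 10 of 13 variants. The genes with the highest levels often had more RNA annotated beyond the stem-loop: 840 bases in *H1f2*, 330 in *H4c9* and 155 in *H2bc8*.

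The symbols of the replication-dependent genes are given to genes of the histone clusters, which lay on chromosome 13 (54 genes, 21715763 to 23934851) and chromosome 3 (10 genes, 96219865 to 96270132). In features that the symbols do not name, the classes differed as well. The median transcript length of the replication-dependent genes was 532 bases against 1633 in the variants, the median GC content was 58.6% against 54.2%, and 59 of 64 had 1 exon against 6 of 13. Over all 11822 tested protein-coding genes the medians were 3473 bases and 49.7%, and 705 had 1 exon.

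Replication-dependent genes also share sequence with each other. Of the 75-base stretches of a transcript, a median of 44.2% was found in another gene as well, and 28 genes had more than 50% of their stretches shared. In the variants the median was 0. How reads were divided among such genes was not stated in the sources used here, so the values of single replication-dependent genes are uncertain. Among those with the highest levels the shared part was 70.5% in *H2ac10*, 47.4% in *H2bc8*, 27.1% in *H2bc4*, 22.4% in *H4c9* and 6.66% in *H1f2*.

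RefSeq promoters (GRCm38.p6, windows around the transcription start) were found for 58 of 64 replication-dependent genes and 11 of 13 variants, and were searched on both strands. CCAAT was in 86.2% of the replication-dependent promoters, 63.6% of the variant promoters and 41.1% of all 27025 promoters. Among replication-dependent genes it was in every promoter found for the H1, H2A, H2B and H3 families and in 3 of 11 of the H4 family. TATAAA was in 58.6% of the replication-dependent promoters, 9.09% of the variant promoters and 15.7% of all. ATTTGCAT, the octamer bound by POU factors, was in 7 of 14 H2B and 6 of 17 H2A promoters of replication-dependent genes. It was in none of their H1, H3 and H4 promoters, in 1 of 11 variant promoters (*H3f3b*) and in 1.97% of all. Windows of neighbouring H2A and H2B genes can overlap, as for *H2bc8* and *H2ac8*, so the same octamer can count in both families. The promoter of *H2bc8* (chr13:23571150-23571449, plus strand) is printed because it held all 3 motifs, and that of *H2ac10* (chr13:23533625-23533924, plus strand), the gene with the largest difference among the replication-dependent genes, because it held only CCAAT. Motifs are in capitals, and ATTGG is CCAAT on the other strand.
H2bc8: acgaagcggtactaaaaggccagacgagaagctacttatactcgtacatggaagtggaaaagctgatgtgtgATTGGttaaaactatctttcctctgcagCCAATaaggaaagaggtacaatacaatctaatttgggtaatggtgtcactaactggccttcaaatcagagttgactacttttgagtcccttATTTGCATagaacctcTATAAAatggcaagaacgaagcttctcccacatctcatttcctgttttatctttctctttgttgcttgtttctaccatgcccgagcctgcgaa
H2ac10: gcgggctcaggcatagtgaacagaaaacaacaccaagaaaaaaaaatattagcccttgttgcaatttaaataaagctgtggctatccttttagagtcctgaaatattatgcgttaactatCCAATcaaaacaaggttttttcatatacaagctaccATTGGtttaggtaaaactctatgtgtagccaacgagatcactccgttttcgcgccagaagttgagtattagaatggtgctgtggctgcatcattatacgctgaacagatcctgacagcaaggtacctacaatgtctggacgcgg

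The variants made up nearly all of the histone RNA in these libraries. Summed over the 13 variants, the level was 3058 TPM in the control, 2715 in the library labelled Tut1 KO, 3417 in that labelled Trp53 KO and 3116 in that labelled double KO. Summed over the 64 replication-dependent genes, it was 216, 167, 243 and 180 TPM in the same order, or 0.0216%, 0.0167%, 0.0243% and 0.0180% of all TPM. The median gene was at 0.634 TPM among the replication-dependent genes and at 137 TPM among the variants. Of the replication-dependent genes, 22 had a mean of at least 1 TPM and 6 of at least 5 TPM, 37 had a mean under 1 but a value above 0 in some library, and 5 were listed at 0 in all libraries (*H2ac1*, *H2ac18*, *H2ac19*, *H2bc1* and *H2bc18*). The 5 highest genes held 73.9% of the class.

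**Figure D1:**
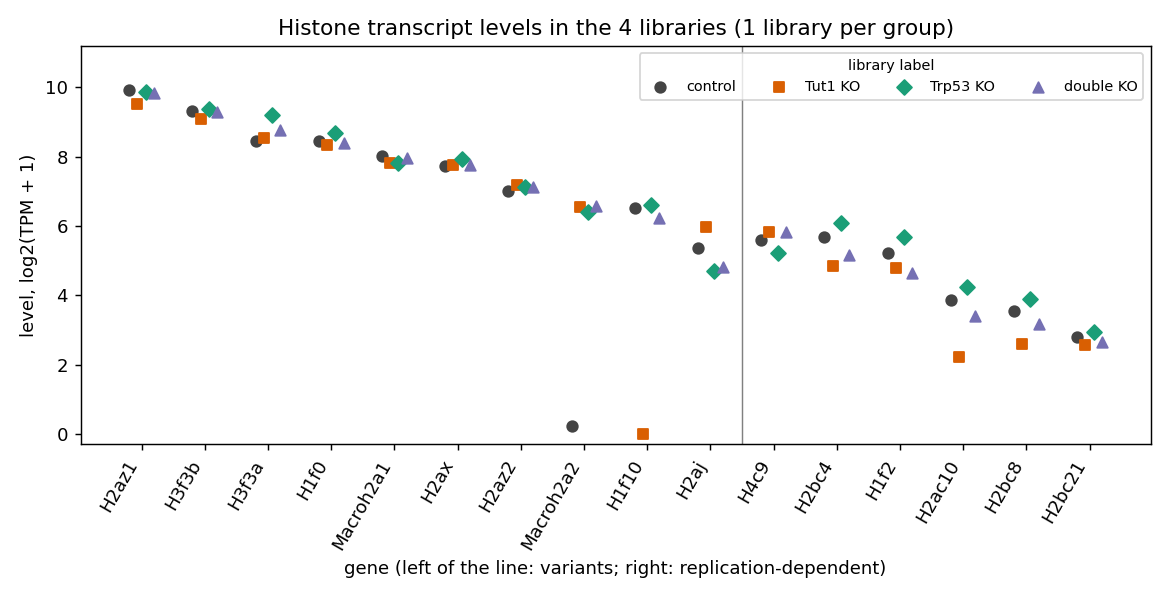
Level of each gene, as log2(TPM + 1) on the vertical axis, in each of the 4 libraries (1 point per library, symbols by label), for the 10 variants and the 6 replication-dependent genes with a mean of at least 5 TPM. In 6 of the 10 variants the highest and lowest library differ by under 0.5, a count not set against all genes. *Macroh2a2* in the control and *H1f10* in the library labelled Tut1 KO are near or at 0. *H2bc4*, *H1f2*, *H2ac10*, *H2bc8* and *H2bc21* are highest in the library labelled Trp53 KO.

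The replication-dependent genes with a long annotated transcript end held most of the higher values. Of the 22 genes with at least 200 bases after the stop codon, 5 had a mean of at least 5 TPM, against 1 of 42 genes with less (*H2ac10*). The medians of the 2 sets were close, at 0.718 and 0.620 TPM, so it was a few genes and not the set that stood out.

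**Figure D2:**
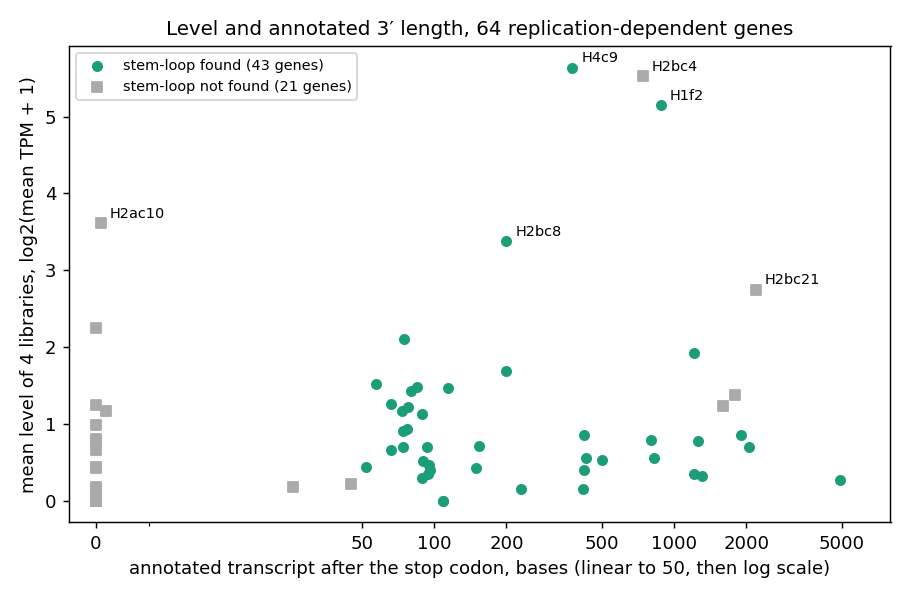
Mean level of the 4 libraries, as log2(mean TPM + 1), against the bases of annotated transcript after the stop codon (linear up to 50, then a log scale) for the 64 replication-dependent genes, with 43 that hold a stem-loop as circles and 21 without as squares. The 6 named genes have a mean of at least 5 TPM, and 5 of them have at least 200 bases after the stop codon.

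Among the core variants, *H2az1*, which encodes the H2A.Z found at promoters, was highest, at 982 TPM in the control, 735 in the library labelled Tut1 KO, 944 in that labelled Trp53 KO and 923 in that labelled double KO. The library labelled Tut1 KO was the lowest, with a difference of -0.42 from the control. *H2az2*, the second H2A.Z gene, was at 128, 144, 138 and 139 TPM in the same order of libraries, which is kept from here on. *H2ax*, whose protein is phosphorylated at DNA breaks, was at 210, 216, 242 and 214 TPM.

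Both genes of the replacement histone H3.3, laid down outside S phase, were among the 3 highest variants. *H3f3b* was at 644, 544, 660 and 624 TPM. *H3f3a* was at 353, 370, 593 and 433 TPM, highest in the library labelled Trp53 KO, by 0.75 against the control, which was short of the threshold. Pseudogenes close in sequence to *H3f3a*, named after their values were seen, were also highest there: *H3f3c* was at 8.69, 10.2, 138 and 25.7 TPM and *H3f3a-ps2* at 1.72, 1.61, 38.8 and 1.82 TPM. Another, *H3f3a-ps1*, was at 6.73, 6.31, 7.49 and 7.40 TPM. Summed over *H3f3a* and these 3 pseudogenes, the level was 370, 389, 777 and 468 TPM. The part of read assignment in this was not tested.

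*H1f0*, a linker histone of slowly dividing and differentiated cells, was at 349, 325, 407 and 337 TPM. *Macroh2a1*, which encodes an H2A with a large extra domain, was at 259, 226, 226 and 251 TPM. Leaving out *Macroh2a2* and *H1f10*, the highest and lowest library differed by under 0.5 in 6 of the 8 remaining variants. Both were left out after their values were seen. The share of all tested genes with so small a range was not computed, so this count is a description only.

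Of the 10 tested variants, 3 were called in some contrast. In single contrasts, 1.6% to 2.15% of all tested genes were called higher and 1.79% to 2.69% lower. The share called in any of the 4 contrasts was not computed, so this count is a description only. *Macroh2a2* was at 0.16 TPM in the control and at 92.1, 84.1 and 95.2 TPM in the 3 libraries that received Cre mRNA, so the control alone was near 0. *H1f10*, a linker histone, was at 91.3, 0, 97.1 and 73.8 TPM, so the library labelled Tut1 KO alone was listed at 0. Its exons overlap those of the gene *Gm47286* on the same strand, and how reads of both were divided was not stated in the sources used here. *H2aj*, an H2A variant, was at 40.5, 61.7, 25.1 and 26.9 TPM, low in both libraries whose label names *Trp53*, with a difference of -0.67 between the libraries labelled Trp53 KO and control and of -1.17 between those labelled double KO and Tut1 KO. *H1f7*, *H1f8* and *H1f9*, linker histones of germ cells, were at 0.19 TPM or less in every library.

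The Tut1 label was compared in 2 contrasts, of libraries that are not shared: the library labelled Tut1 KO against the control, and that labelled double KO against that labelled Trp53 KO. The most abundant replication-dependent genes of the H1, H2A and H2B families were lower with the label in both. *H2bc4*, an H2B gene, was at 50.7, 28.0, 66.5 and 34.9 TPM. Its differences were -0.84 and -0.91, and both libraries with the label were below both without it. *H2bc8*, another H2B gene, was at 10.6, 4.98, 14.0 and 7.93 TPM, with differences of -0.95 and -0.75. *H2ac10*, an H2A gene, was at 13.6, 3.66, 17.9 and 9.57 TPM, with differences of -1.65 and -0.84. Here too both libraries with the label were lower than both without it.

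*H1f2*, which encodes a linker histone, was at 36.6, 26.8, 50.5 and 24.005 TPM, with differences of -0.44 and -1.04. The second of these was just past the threshold, and was -0.94 with a pseudocount of 5 and -0.99 after a correction for GC content and length. *H2bc21*, on chromosome 3, was at 6.001, 4.91, 6.71 and 5.24 TPM, with differences of -0.25 and -0.30. Values of *H2bc21*, which shares no 75-base stretch with another gene, thus followed the same order as those of *H2bc4*, *H2ac10* and *H2bc8*: the library labelled Trp53 KO highest, then the control, then that labelled double KO, and that labelled Tut1 KO lowest. *H3c3* and *H2bc23* had this order too, so 6 of the 22 tested genes did (27.3%), as did 4.99% of all tested genes. The order was chosen after the values of these genes were seen, and some of the 6 share sequence, so the count is a description only. Counted without regard to order within the label, both libraries with the Tut1 label were below both without it in 10 of 22 genes (45.5%) and in 17.9% of all tested genes. They were above both in 3 of 22 (13.6%) and in 14.9% of all.

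The most abundant H4 gene was higher with the label. *H4c9*, with the highest mean over the 4 libraries of the replication-dependent genes, was at 47.4, 56.3, 36.1 and 55.3 TPM, and was higher with the label by 0.24 and 0.60. *H4c12* was at 4.36, 4.71, 2.01 and 3.96 TPM. *H4c18*, the only other H4 gene tested, was at 2.63, 0.861, 1.56 and 1.73 TPM, with differences of -0.97 and 0.09, so the 3 H4 genes had no common direction in the first contrast. Summed over the 12 H4 genes the level was 59.4, 66.7, 45.3 and 65.6 TPM, whereas summed over the 17 H2B genes it was 80.4, 47.4, 97.4 and 57.9 TPM. The H4 sum rests on *H4c9*: the other 11 H4 genes summed to 12.03, 10.4, 9.15 and 10.3 TPM, lower in the library labelled Tut1 KO than in the control.

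**Figure D3:**
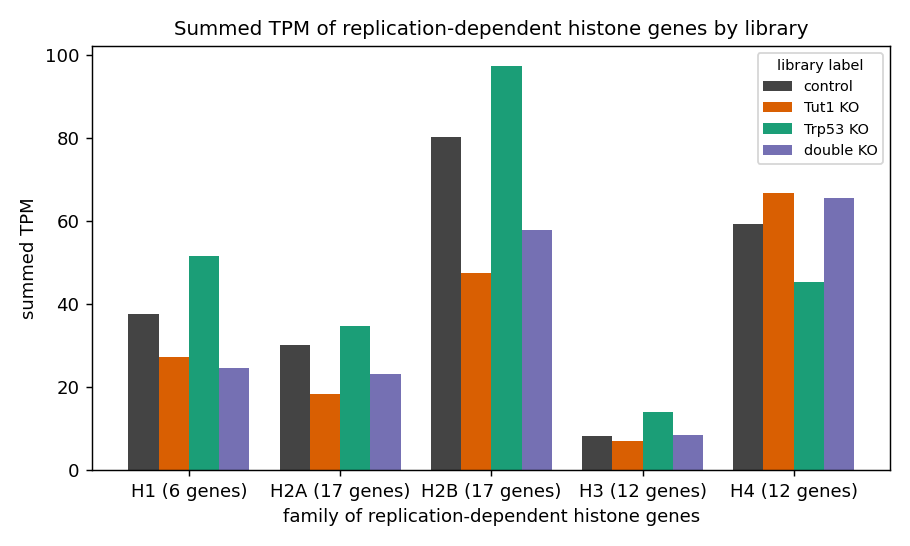
Summed TPM of the replication-dependent genes of each family in each of the 4 libraries (bars from 0, 1 library per label, no error). In H1, H2A, H2B and H3 the libraries labelled Tut1 KO and double KO are below their comparators, and in H4 they are above them, at 66.7 and 65.6 TPM against 59.4 and 45.3, most of it *H4c9*.

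The sums of the H2A, H1 and H3 families were also lower with the label in both contrasts. The 17 H2A genes summed to 30.2, 18.3, 34.8 and 23.3 TPM, the 6 H1 genes, nearly all *H1f2*, to 37.7, 27.3, 51.8 and 24.6 TPM, and the 12 H3 genes to 8.33, 7.15, 14.1 and 8.41 TPM. The 58 genes with a mean under 5 TPM summed to 51.2, 42.3, 51.5 and 42.9 TPM.

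Read over the 22 tested replication-dependent genes, the median difference was -0.34 between the libraries labelled Tut1 KO and control (7 genes above 0 and 15 below) and -0.29 between those labelled double KO and Trp53 KO (8 above and 14 below). Over all tested genes the medians were -0.09 and 0.04. The variants had medians of -0.03 and -0.06, the first of which became 0.06 when the median of all genes was set to 0. The gap between the classes depended on how they were set: divided by the stem-loop instead of the symbol, the 15 tested genes with it had medians of -0.23 and -0.18 and the 17 without it -0.25 and -0.27. In the first contrast 1 replication-dependent gene was called lower, *H2ac10*, and none higher, where 2.69% of all tested genes were called lower and 1.65% higher. Among the variants there, *Macroh2a2* was higher and *H1f10* lower. In the second, *H1f2* was called lower and no histone gene higher, where the shares were 1.79% and 1.6%. These counts depend on the pseudocount: at 0.1 in place of 1, 8 of the 32 tested histone genes were called lower in the first contrast (4.15% of all tested genes) and 4 in the second (2.75%).

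Of the 22 genes, 12 were lower in both Tut1 contrasts, 5 were higher in both (*H4c9*, *H4c12*, *H2ac8*, *H2ac23* and *H2bc12*) and 5 changed sign. Over all tested genes 25.3% were lower in both and 21.8% higher in both. A difference of -0.5 or lower in both was found for 5 of 22 (*H2bc4*, *H2ac10*, *H2bc8*, *H2bc24* and *H2bc23*), or 22.7%, against 1.51% of all tested genes and 0 of 10 variants. This limit was chosen after the values were seen. *H2bc23* and *H2bc24* had 95.9% and 87.1% of their stretches shared with other genes and were at 0.63 to 2.37 TPM, so they may not be separate readings. Both reached the minimum mean of 1 TPM only through the libraries without the label, so this share, like the other counts over the 22 tested genes, is a description and no support for a difference from all genes.

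**Figure D4:**
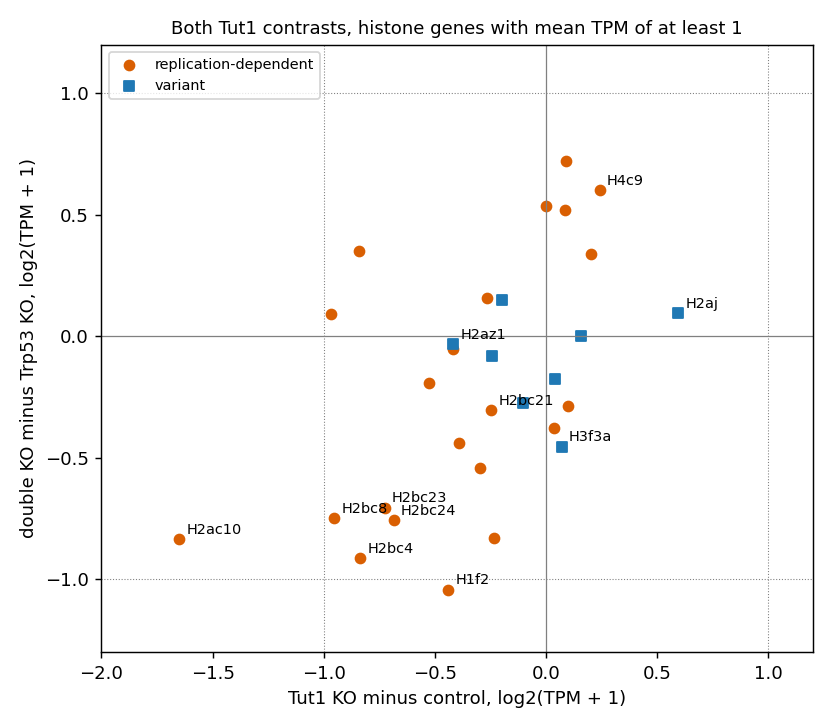
Difference between the libraries labelled Tut1 KO and control (horizontal) against that between the libraries labelled double KO and Trp53 KO (vertical), both on the log2(TPM + 1) scale, for the 22 tested replication-dependent genes (circles) and 8 variants (squares), with dotted lines at a difference of 1. *H2ac10*, *H2bc4*, *H2bc8*, *H2bc23*, *H2bc24* and *H1f2* lie at the lower left and *H4c9* at the upper right, and *Macroh2a2* (6.33 and 0.18) and *H1f10* (-6.53 and -0.39) lie outside the axes.

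The remaining genes of the 15 highest replication-dependent ones were low. *H2ac11* was at 3.87, 3.99, 3.13 and 2.18 TPM, *H3c14* at 2.58, 1.73, 4.10 and 2.76 TPM, and *H2ac8* at 2.03, 2.03, 1.80 and 3.06 TPM. No difference of these 3 reached the threshold. *H2ac24*, *H2ac23*, *H3c3*, *H4c18* and *H2bc24* had means of 1.58 to 1.87 TPM. Over the 16 genes with a mean of 1 to 5 TPM the medians of the Tut1 contrasts were -0.28 and -0.12, and over the 6 higher genes they were -0.64 and -0.79. The log2(TPM + 1) scale shrinks the differences of the lower genes, so these medians are not a comparison of the sizes of change.

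For the Trp53 label, 8 of the 22 replication-dependent genes were higher in both contrasts, 6 were lower in both and 8 changed sign, and of all tested genes 22.3% were higher and 22.0% lower in both. Of the 6 genes with a mean of at least 5 TPM, 4 (66.7%) were higher in both. Between the libraries labelled Trp53 KO and control the median was -0.04 (-0.05 over all tested genes), with 11 of 22 genes above 0 and 11 below, and its sign turned with the minimum level (0.37 in genes with a mean of at least 5 TPM). The 5 most abundant genes outside H4 were higher, from 0.14 in *H2bc21* to 0.45 in *H1f2*, and *H4c9* was lower (-0.38). No replication-dependent gene was called, where 1.86% of all tested genes were called higher and 2.2% lower, and of the variants *Macroh2a2* was called higher. Between the libraries labelled double KO and Tut1 KO the median was 0.09 (0.08 over all tested genes), with 13 genes above 0 and 9 below, and 0.19 in the 6 genes with a mean of at least 5 TPM. *H2ac10* was called higher by 1.18 (0.75 with a pseudocount of 5), as was *H1f10*, and *H2aj* was called lower, where 2.15% and 1.99% of all tested genes were called.

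Genes that make or handle histone mRNA were read beside these values, with the same rule. Of 17 tested genes of histone mRNA processing and decay, none was called in either Tut1 contrast, and the medians were -0.27 and 0.09. Of all tested genes, 2.69% and 1.79% were called lower in these contrasts and 1.65% and 1.6% higher. With such shares, no call in a list of this size is not a result about its genes. *Slbp*, which binds the stem-loop, was at 53.04, 36.6, 54.4 and 53.7 TPM, low in the library labelled Tut1 KO alone. *Lsm10*, of the U7 particle that cleaves histone mRNA, was at 16.1, 29.5, 33.3 and 28.2 TPM and was the only gene of the list called, higher by 1.0002, at the threshold, in the library labelled Trp53 KO than in the control. *Npat*, the activator of histone gene transcription, was at 10.1, 6.79, 8.53 and 10.3 TPM.

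Of 20 S phase genes, the medians in the Tut1 contrasts were -0.25 and 0.06. None was called in either, which at the shares given above for all tested genes is no result about these genes. Summed, they were at 2066, 1682, 1968 and 2081 TPM in the order of libraries used above, lowest in the library labelled Tut1 KO. The part of S phase in the histone values was not tested. *Pcna*, the sliding clamp of replication, was at 499, 367, 446 and 506 TPM. *Fen1*, a flap nuclease, was the only gene called, higher by 1.13 in the library labelled Trp53 KO than in the control and by 1.502 in that labelled double KO than in that labelled Tut1 KO. Of 21 histone chaperones none was called in any contrast, where 1.6% to 2.69% of all tested genes were called in each direction. This too is no result about them, and their medians were -0.21 and 0.10 for the Tut1 label. *Nap1l1*, which carries H2A and H2B, was at 474, 410, 491 and 539 TPM.

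RNAs that have no poly(A) tail differed between the libraries. Summed over the list of such RNAs, the level was 23.6 TPM in the control, 52.2 in the library labelled Tut1 KO, 61.6 in that labelled Trp53 KO and 21.3 in that labelled double KO, and the medians of 5 tested genes were 1.03 and -1.32 in the Tut1 contrasts. Differences over 11813 protein-coding genes also went with GC content, with a Spearman correlation across genes of 0.42 in the first and -0.19 in the second Tut1 contrast. After a fit on GC content and length was removed, the median of the replication-dependent genes was -0.54 and -0.23, and that of *H2bc4* was -0.88 and -0.90. The part of poly(A) selection in these values was not tested.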

How the data were processed

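The deposited table held TPM values computed by the authors, 1 column per library, for 55487 Ensembl gene IDs. The submitters' processing notes name Trimmomatic, HISAT2, StringTie and mm10, with no versions or roles. Per the labels the kit was one for short reads from mRNA, whereas the series text describes long-read sequencing, so the platform was not settled. TPM keeps no depth, so the depth of each library is unknown and no counting interval was computed.

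Members and lists were chosen with earlier results of these data known. Groups came from the sample titles. Differences were taken as log2(TPM + 1) over genes with a mean of at least 1 TPM, and 1 was the threshold. No test was run, since each group had 1 library. Genes named included the variants, the 15 replication-dependent genes with the highest mean, and members and list genes past the threshold. Other list genes were named too, not all of them the highest of their list. *Slbp* and *Npat* were neither past the threshold nor among the 4 highest of the histone mRNA processing list. Their differences between the libraries labelled Tut1 KO and control were -0.52 and -0.51. Those of the 4 highest, *Srrt*, *Cpsf3*, *Ncbp1* and *Ncbp2*, were -0.023, 0.042, -0.299 and -0.14. The symbol pattern first written for the replication-dependent class also matched *H1f10*, which was used here as a variant. Keeping it in that class was added as an alternative after the data were seen, beside 13 alternatives for pseudocount, minimum, scaling, GC content and length, threshold, classes and overlapping genes. Transcripts and coordinates came from GENCODE M21 (GRCm38), in which 55141 IDs were found, and promoters from RefSeq (GRCm38.p6). Amino acid sequences were not used here. The code was tested on simulated data. Python 3.11.15, numpy 2.4.6, pandas 2.3.3 and matplotlib 3.10.9 were used.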

Additional observations from a re-analysis of the deposited data

How the results depend on the processing

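No paired analysis was possible because each group had 1 library, and no library could be left out. Of 200 values for medians and counts under the alternatives, 159 stayed near the reported ones, 30 moved and 11 changed sign. Of 64 differences of single genes, 8 crossed 0 under some alternative, all with a reported size of 0.051 or less. The median of the replication-dependent genes stayed below 0 in both Tut1 contrasts under every alternative that gives a median, from -0.84 to -0.09 (library labelled Tut1 KO minus control) and from -0.87 to -0.09 (double KO minus Trp53 KO). With a mean of at least 5 TPM these medians were -0.64 and -0.79, with a mean of at least 10 TPM -0.64 and -0.87, with 10 TPM in at least 1 library compared -0.84 and -0.84, and with no minimum -0.092 and -0.092. For Trp53 KO minus control the median became 0.37 under each of these 3 minimums, 0.011 with no minimum, 0.017 with the median of all genes set to 0, and 0.0093 with classes by the stem-loop or with *H1f10* among the replication-dependent genes. For double KO minus Tut1 KO it became -0.025 with 10 TPM in at least 1 library. The variant median for Tut1 KO minus control became 0.062 with the median of all genes set to 0, and 0.040 without genes that share exons or without *H1f10*. With classes by the stem-loop it was -0.25, and -0.27 for double KO minus Trp53 KO, against -0.23 and -0.18 in the genes with a stem-loop, so the gap between the classes was not kept.

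Counts of called histone genes depended on the settings, and the percent of all genes called under the same setting is in brackets. With a pseudocount of 0.1, 8 (4.15%) were lower for Tut1 KO minus control, 1 (2.66%) was higher and 4 (2.75%) lower for double KO minus Trp53 KO, 2 (3.33%) were lower for Trp53 KO minus control and 4 (3.38%) higher for double KO minus Tut1 KO. With a pseudocount of 5, 0 (1.02%) were lower for double KO minus Trp53 KO and 1 (1.11%) was higher for double KO minus Tut1 KO. At a threshold of 1.5-fold, 2 (5.11%) were higher and 8 (9.05%) lower for Tut1 KO minus control, 2 (4.56%) and 7 (5.02%) for double KO minus Trp53 KO, 2 (4.86%) and 4 (5.53%) for Trp53 KO minus control, and 4 (7.12%) and 2 (5.24%) for double KO minus Tut1 KO. After the correction for GC content and length, 5 (2.66%) were lower for Tut1 KO minus control and 0 (1.79%) for double KO minus Trp53 KO. Without genes that share exons, 1 (2.69%) was lower for Tut1 KO minus control and 1 (2.15%) higher for double KO minus Tut1 KO, as was 1 (2.13%) with 10 TPM in at least 1 library. With no minimum, 2 (0.519%) were lower for double KO minus Trp53 KO. With mitochondrially encoded and ribosomal protein genes removed, 3 (2.92%) were lower for Tut1 KO minus control. The cause was not tested except where fewer genes were used.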

Other observations

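Histone genes that the symbols used here did not take in were read as values. *Cenpa*, the H3 of centromeres, was at 196 TPM in the control, 170 in the library labelled Tut1 KO, 232 in that labelled Trp53 KO and 145 in that labelled double KO, and was thus lower with the Tut1 label, with differences of -0.20 and -0.67 on the log2(TPM + 1) scale. *H2aw* was at 26.9, 19.4, 16.6 and 12.4 TPM in the same order, and *H2bu2* at 44.9, 48.2, 46.7 and 48.0 TPM. None of these 3 was past the threshold in a contrast. *H4f16* was at 0.062 TPM or less.

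Among RNAs without a poly(A) tail, the signal recognition particle RNA *Rn7s1* was at 7.56, 18.6, 18.4 and 5.25 TPM and *Rn7s2* at 8.02, 14.6, 20.2 and 4.64 TPM, and *Rn7sk*, which holds back transcription elongation, was at 4.86, 11.5, 11.6 and 5.18 TPM. *Rpph1* and *Rmrp*, the RNAs of RNase P and RNase MRP, were at 1.37, 3.85, 5.23 and 3.10 TPM and at 1.64, 2.94, 4.54 and 1.22 TPM. For all 5 both libraries with a single KO label were above the control. Of neuronal markers, *Snap25*, of the synaptic vesicle fusion machinery, was at 9.65, 3.38, 10.5 and 6.06 TPM, the only one called, with a difference of -1.28 between the library labelled Tut1 KO and the control. Summed markers were at 125 to 137 TPM for astrocytes, 907 to 1039 TPM for oligodendrocyte lineage cells, nearly all of it *Olig1*, and 0.70 to 1.17 TPM for endothelial and mural cells. No astrocyte or neural stem cell marker was called in a contrast, where 1.6% to 2.69% of all tested genes were called in each direction.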
